A study of Mus musculus with 6 samples.

Results

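The genes described here encode the MHC class II antigen presentation machinery of the mouse: the classical chain genes H2-Aa, H2-Ab1 and H2-Eb1, the invariant chain Cd74, the peptide exchange factor genes H2-DMa and H2-DMb1, and the transactivator Ciita. They were picked by gene name and not by a threshold on their values, and each matched 1 row, giving 7 of the 55357 genes in the table. Expression was measured by bulk RNA sequencing of primary astrocyte cultures from the cortex of embryonic C57BL/6 mice. In 3 cultures, the cells had been transfected with a plasmid that expressed FLAG-tagged BRAF K499E, a mutant of the MAPK pathway kinase BRAF, from the CMV promoter (BRAF KE). The other 3 cultures were nontransfected, and RNA was taken 48 hours after transfection. All 6 cultures shared the strain, the cortical source and the astrocyte medium. No culture with an empty plasmid or with wild-type BRAF was analysed here, so the mutant kinase and the transfection itself cannot be told apart. The sources used here do not say that the cultures came from separate animals, and p-values therefore measure only the spread between these cultures, which may be technical.

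MHC class II molecules present peptides from the endosomal pathway to CD4+ T cells and are best known from dendritic cells, B cells and macrophages. In these cells and, after interferon-γ signalling, in many others including microglia and astrocytes, Ciita is the master switch: it binds no DNA itself but docks on RFX, NF-Y and CREB proteins at the promoters of the class II genes, of Cd74 and of H2-DM. Cd74 protects the peptide groove of the new αβ dimer and sorts it to the endosome, where cathepsins trim it, and H2-DM then exchanges its last fragment for peptide.

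The deposited values were normalized counts, that is, read counts scaled to a common depth by the authors, and their sum per culture lay between 30472429 and 30895529. The most frequent low value, which is about the worth of 1 read, was 0.905 to 1.25 depending on the culture. Cultures of a group correlated with r between 0.989 and 0.991 across genes, against at most 0.95 between groups. Braf, which checks the labels, stood at 34933 to 40978 normalized counts in BRAF KE–transfected astrocytes and at 811 to 946 in nontransfected astrocytes (log2FC 5.37, SE 0.08, adjusted p = 2.11e-11, limma). Genes with a mean of at least 10 normalized counts over the 6 cultures were tested with limma on log2(normalized count + 1). Each log2FC below is BRAF KE minus nontransfected on that scale, which understates changes of low genes, and a DEG is a gene with a Benjamini-Hochberg adjusted p under 0.05 over all 15280 genes tested.

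Among the class II genes, Cd74 and H2-DMb1 were lower in BRAF KE–transfected astrocytes, the classical chain genes and H2-DMa were not DEGs, and Ciita and H2-Aa were too low to be tested. Thus 5 of the 7 members passed the filter on low values, 2 of them were DEGs with lower expression, and 0 were DEGs with higher expression. At an unadjusted p under 0.05 by limma the counts were the same, 2 lower and 0 higher. Of all genes tested, 51.3% were DEGs, 25.3% with higher and 26.0% with lower expression. The median log2FC was −0.01 over the 5 tested members and 0.00 over all genes tested. In 3 of the 5 tested members (Cd74, H2-DMb1 and H2-Eb1) the 2 groups of cultures did not overlap, 2 of them lower and 1 higher with BRAF KE. This was so for 59.9% of all genes tested, 29.9% lower and 30.1% higher, a share close to that of the members.

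**Figure D1:**
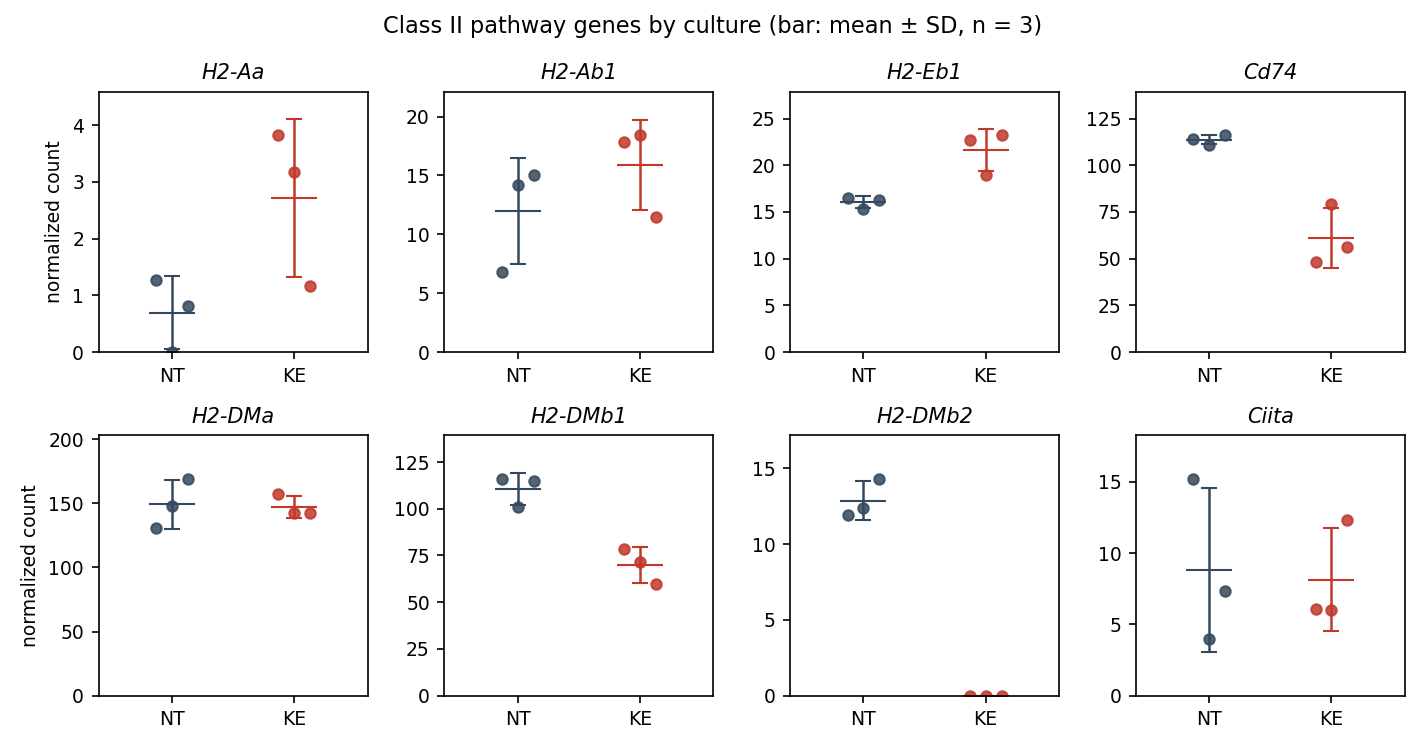
Normalized counts (vertical axis, own scale per gene) of the 7 members and of H2-DMb2, the neighbour of H2-DMb1 with a similar sequence, in each culture, BRAF KE (KE) and nontransfected (NT). Points are cultures, and the horizontal line and error bar give the mean and SD of 3 cultures. The groups are apart for Cd74, H2-DMb1 and H2-DMb2, lower in KE, and for H2-Eb1, higher in KE, and they overlap for H2-Aa, H2-Ab1, H2-DMa and Ciita.

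No classical chain gene was a DEG. H2-Ab1 (ENSMUSG00000073421, chromosome 17, 34476663 to 34488393 in GRCm39, plus strand) encodes the β chain of I-A. It had 17.8, 18.4 and 11.5 normalized counts in the BRAF KE–transfected cultures and 6.81, 14.2 and 15.0 in the nontransfected cultures. The groups overlapped, with means of 15.9 ± 3.81 and 12 ± 4.52 normalized counts (SD, n = 3 each), and the lowest value belonged to nontransfected replicate 1. The log2FC of H2-Ab1 was 0.42 (SE 0.40, 95% confidence interval −0.46 to 1.30, adjusted p = 0.399). Without nontransfected replicate 1 it was 0.09 (adjusted p = 0.866, limma), so its size rests largely on that culture.

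H2-Eb1 (ENSMUSG00000060586, chromosome 17, 34504236 to 34535648, plus strand) encodes the β chain of I-E, whose partner H2-Ea is not expressed in strains of the b haplotype such as C57BL/6. H2-Eb1 had 22.7, 19.0 and 23.2 normalized counts in BRAF KE–transfected astrocytes and 16.5, 15.3 and 16.3 in nontransfected astrocytes. Every BRAF KE–transfected culture was above every nontransfected one, with means of 21.6 ± 2.32 and 16.0 ± 0.673 normalized counts (SD, n = 3 each). Its log2FC was 0.41 (SE 0.29, 95% confidence interval −0.23 to 1.04) and its adjusted p was 0.259. When the variance trend was left out, the SE of H2-Eb1 was 0.09 and the adjusted p was 0.0149, so that its call depends on this setting.

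H2-Aa (ENSMUSG00000036594, chromosome 17, 34493404 to 34506798, minus strand) encodes the α chain of I-A and was close to the limit of detection. It was listed at 3.82, 3.18 and 1.16 normalized counts in BRAF KE–transfected astrocytes and at 1.27, 0 and 0.81 in nontransfected astrocytes, that is, a few reads at most per culture. The groups overlapped, and with no filter on low values the log2 difference was 1.13 (SE 0.53, adjusted p = 0.126). H2-Aa and H2-Eb1 lie on opposite strands and share 2563 bases. The library kit keeps strand, but whether the counting used it is not given in the sources used here, so reads in the shared stretch are uncertain for both genes. Summed over H2-Aa, H2-Ab1 and H2-Eb1, the cultures had 44.3, 40.6 and 36.0 normalized counts with BRAF KE and 24.6, 29.5 and 32.1 without transfection. These sums did not overlap, and the exact permutation test gave p = 0.1 (two-sided), the smallest value that 3 against 3 cultures allow; of all single genes tested, 30.1% were likewise higher with BRAF KE with no overlap.

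The invariant chain gene was a DEG with lower expression in BRAF KE–transfected astrocytes. Cd74 (ENSMUSG00000024610, chromosome 18, 60936899 to 60945731, plus strand) had 48.0, 79.3 and 56.2 normalized counts in BRAF KE–transfected astrocytes and 114, 111 and 116 in nontransfected astrocytes. All 3 BRAF KE–transfected cultures were below all nontransfected ones, and they varied more among themselves, with means of 61.1 ± 16.2 and 114 ± 2.26 normalized counts (SD, n = 3 each). The log2FC of Cd74 was −0.91 (SE 0.20, 95% confidence interval −1.36 to −0.47, adjusted p = 0.0029).

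Of the H2-DM heterodimer, the β chain gene was lower while the α chain gene was not a DEG. H2-DMb1 (ENSMUSG00000079547, chromosome 17, 34372046 to 34379204, plus strand) had 78.5, 71.3 and 59.7 normalized counts in BRAF KE–transfected astrocytes and 116, 101 and 115 in nontransfected astrocytes. The groups did not overlap, with means of 69.9 ± 9.48 and 111 ± 8.12 normalized counts (SD, n = 3 each) and a log2FC of −0.66 (SE 0.17, 95% confidence interval −1.04 to −0.29, adjusted p = 0.00725). H2-DMa (ENSMUSG00000037649, chromosome 17, 34338515 to 34358958, plus strand) had 157, 142 and 142 normalized counts in BRAF KE–transfected astrocytes and 131, 148 and 169 in nontransfected astrocytes. The nontransfected cultures spanned the BRAF KE–transfected ones, with means of 147 ± 8.71 and 149 ± 19.2 normalized counts (SD, n = 3 each). The log2FC of H2-DMa was −0.01 (SE 0.14, 95% confidence interval −0.33 to 0.30, adjusted p = 0.944). H2-DMa shares 3231 bases with Brd2, a bromodomain gene on the opposite strand that had 9278 ± 199 normalized counts with BRAF KE and 7700 ± 121 without (SD, n = 3 each; log2FC 0.27, adjusted p = 0.00106), so the counts of H2-DMa carry the same strand limit.

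H2-DMb2, a second β chain gene beside H2-DMb1, was listed at 0 in all 3 BRAF KE–transfected cultures and at 11.9, 12.4 and 14.3 normalized counts in the nontransfected ones. The canonical transcripts of the pair are 1404 (H2-DMb1) and 1462 (H2-DMb2) bases long, and a local alignment covered 1118 positions. Within that part they were identical at 94.6% of positions, with an identical run of 221 bases. Reads from it can be split between the 2 genes, so the counts of each are uncertain. Their sum, which does not depend on that split, was 78.5, 71.3 and 59.7 normalized counts in BRAF KE–transfected astrocytes and 128, 114 and 129 in nontransfected astrocytes. The difference of the group means of log2(sum + 1) was −0.82 (exact permutation p = 0.1, two-sided, on these log2 values). H2-DMa per unit of this sum was 2.00, 2.00 and 2.37 with BRAF KE and 1.02, 1.30 and 1.31 without, again with no overlap (exact permutation p = 0.1, two-sided). This p is the smallest that 3 against 3 cultures allow. Of all single genes tested, 29.9% were lower and 30.1% higher with BRAF KE with no overlap.

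Ciita (ENSMUSG00000022504, chromosome 16, 10297923 to 10347694, plus strand) had 6.07, 5.99 and 12.3 normalized counts in BRAF KE–transfected astrocytes and 15.2, 3.97 and 7.31 in nontransfected astrocytes. The nontransfected cultures held both the highest and the lowest value, and the means were 8.12 ± 3.62 and 8.82 ± 5.75 normalized counts (SD, n = 3 each). With no filter on low values the log2 difference of Ciita was −0.01 (SE 0.53, 95% confidence interval −1.14 to 1.13, adjusted p = 0.992), so that a change by as much as a doubling or a halving was not detectable at this depth.

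Of the other class II genes, none passed the filter on low values. H2-Oa and H2-Ob encode H2-O, which restrains H2-DM. H2-Oa was listed at 0, 1.25 and 0 normalized counts with BRAF KE and at 0.99, 4.12 and 5.74 without. H2-Ob was listed at 5.04, 1.39 and 3.02 with BRAF KE and at 3.84, 13.3 and 12.6 without. The groups overlapped for H2-Oa and for H2-Ob. H2-Ea was listed at 0 in all 6 cultures, and H2-Eb2 only in nontransfected replicate 3, at 0.952.

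Levels were compared between genes as normalized counts per kilobase of the canonical transcript. In BRAF KE–transfected astrocytes H2-DMa was first at 128 ± 7.56 per kilobase, followed by H2-DMb1 at 49.8 ± 6.75 and Cd74 at 42.7 ± 11.3 (SD, n = 3), and the values of the last pair overlapped. H2-Ab1 at 13.1 ± 3.14 and H2-Eb1 at 12.8 ± 1.37 per kilobase came next and overlapped, as did the lowest pair, H2-Aa at 2.41 ± 1.23 and Ciita at 1.09 ± 0.484. In nontransfected astrocytes the order was H2-DMa at 130 ± 16.7, Cd74 at 79.4 ± 1.58, H2-DMb1 at 78.8 ± 5.78, H2-Ab1 at 9.91 ± 3.73, H2-Eb1 at 9.45 ± 0.397, Ciita at 1.18 ± 0.769 and H2-Aa at 0.615 ± 0.57 per kilobase. Cd74 overlapped with H2-DMb1, H2-Ab1 with H2-Eb1, and Ciita with H2-Aa. In both groups, then, the endosomal helper genes stood above the classical chain genes. The strand limit given above for H2-DMa, H2-Aa and H2-Eb1 holds for their levels here too, including the first place of H2-DMa. Cd74 and H2-DMb1, taken without H2-DMa, also stood above the classical chain genes. Among the 25270 genes that were above 0 in any culture and had a canonical transcript length (of 25499 above 0), H2-DMa was at percentile 63.9 of level per kilobase with BRAF KE and 63.5 without, Cd74 at 54.0 and 58.2, and H2-Aa at 33.1 and 20.7.

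The class II region was also read by position, since the genes for class I peptide supply lie inside it. Between H2-Oa and H2-Eb2 on chromosome 17 (34311314 to 34560386 in GRCm39) the annotation held 14 protein-coding genes, of which 9 were tested. The 5 DEGs with higher expression were Brd2 and the block of Psmb9, Tap1, Psmb8 and Tap2, which encode proteasome subunits and the peptide transporter of the class I pathway. Psmb9 had 1701 ± 108 normalized counts with BRAF KE and 491 ± 33.5 without (log2FC 1.79), and Tap2 at the other end of the block had 4092 ± 109 and 1454 ± 117 (SD, n = 3 each; log2FC 1.50). H2-DMb1, which neighbours Psmb9, was the 1 DEG with lower expression. The remaining 3 tested genes, H2-DMa, H2-Ab1 and H2-Eb1, were not DEGs.

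**Figure D2:**
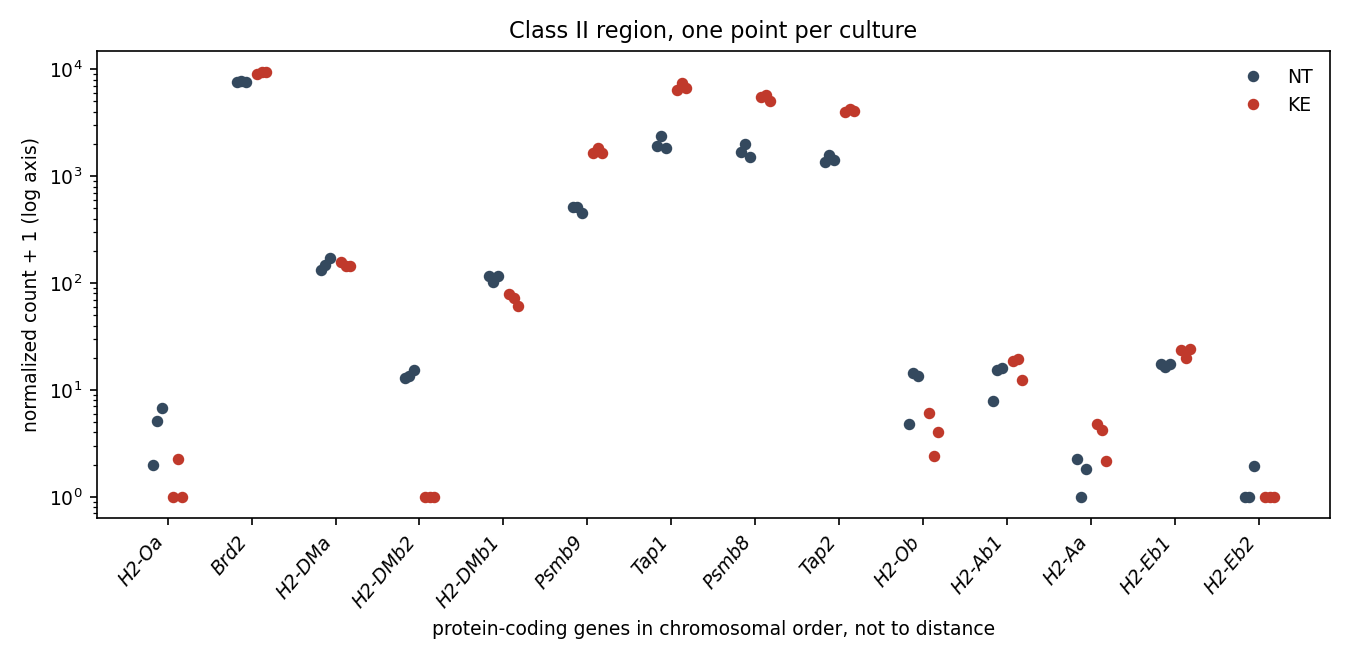
Normalized count + 1 (vertical axis, log scale) of the 14 protein-coding genes from H2-Oa to H2-Eb2 in chromosomal order, not to distance; each point is 1 culture, BRAF KE (KE) or nontransfected (NT). Psmb9, Tap1, Psmb8 and Tap2 stand well above the class II genes on either side and are higher in KE, while H2-DMb1 is lower in KE and H2-DMb2 is at 0 in every KE culture.

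The promoters are shown because Ciita and its partner factors act through motifs that class II genes have in common. RefSeq promoter entries (GRCm38.p6) matched 4 of the 7 members, H2-Aa, H2-Eb1, H2-DMa and H2-DMb1, and also H2-DMb2, H2-Oa and H2-Ob. The 250 bases before each start were searched on both strands for AACNGATG, for TGATTGG, which holds the reversed CCAAT element bound by NF-Y, and for TGACGTCA, the CREB element. These letters were chosen after the windows had been read, and none of the motifs overlaps another in the stretches below. Each stretch is 52 bases from chromosome 17, written 5′ to 3′ on the strand of the gene, with the matches in capitals. H2-Aa is chr17:34287862-34287913 (minus strand), H2-Eb1 is chr17:34305766-34305817, H2-DMb1 is chr17:34153088-34153139 and H2-DMb2 is chr17:34145117-34145168 (plus strand).
H2-Aa: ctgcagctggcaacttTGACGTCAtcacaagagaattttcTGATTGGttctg
H2-Eb1: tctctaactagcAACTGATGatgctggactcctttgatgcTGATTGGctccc
H2-DMb1: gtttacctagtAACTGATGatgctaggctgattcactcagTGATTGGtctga
H2-DMb2: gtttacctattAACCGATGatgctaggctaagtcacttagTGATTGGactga
The start of TGATTGG lay 50 bases before the gene's start in H2-Aa, 61 in H2-Eb1, 63 in H2-DMb1 and 92 in H2-DMb2. From the start of AACNGATG to the start of TGATTGG there were 28 bases in H2-Eb1 and 29 in H2-DMb1 and H2-DMb2, and from TGACGTCA 24 in H2-Aa. H2-Eb1, which was not a DEG, and H2-DMb1, which was lower, thus held the same pair of motifs. H2-Oa and H2-Ob held TGATTGG alone, and the 2 entries of H2-DMa held none of the 3 motifs. Among all 32851 promoter entries, AACNGATG was found in 1.98%, TGATTGG in 7.23%, TGACGTCA in 1.55%, and AACNGATG together with TGATTGG in 0.146%.

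The factors that bind these promoters were expressed in both groups. Of the 7 genes for RFX, NF-Y and CREB proteins, 1 was a DEG with higher and 4 with lower expression, 2 were not called, and the median log2FC was −0.23. Rfx5, the DNA-binding subunit of RFX, had 807 ± 51.9 normalized counts with BRAF KE and 678 ± 66.3 without (log2FC 0.25, adjusted p = 0.0394), a call that was lost without BRAF KE replicate 2 or 3, without nontransfected replicate 1, or without the variance trend. Creb1 had 1477 ± 169 and 2292 ± 75.7 normalized counts (log2FC −0.64, adjusted p = 6.67e-05). Nfya, the NF-Y subunit that contacts CCAAT, had a log2FC of −0.59 (adjusted p = 2.23e-05), whereas Rfxank had −0.01 (adjusted p = 0.955).

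The regulators of Ciita were mixed. Of 12 regulators, 11 were tested, of which 5 were DEGs with higher and 4 with lower expression, and the median log2FC was 0.19. Irf1, a transcription factor that acts on the interferon-responsive Ciita promoter, had 2526 ± 16.1 normalized counts in BRAF KE–transfected and 1007 ± 100 in nontransfected astrocytes (SD, n = 3 each; log2FC 1.33, adjusted p = 1.67e-07), and Socs1, a feedback inhibitor of interferon signalling, had a log2FC of 1.31 (adjusted p = 3.36e-05). Ciita itself, at 5.99 to 12.3 and 3.97 to 15.2 normalized counts, stayed low in both groups, and Ifng was listed at 0 in all 6 cultures. The receptor gene Ifngr1 was lower (log2FC −0.30, adjusted p = 0.00227). The 3 other DEGs with lower expression were myeloid or lymphoid transcription factors: Spi1 with 65.9 ± 27.5 and 830 ± 208 normalized counts (log2FC −3.69), Irf8 with 96.2 ± 16.2 and 665 ± 55.9 (log2FC −2.78), and Prdm1 with a log2FC of −1.52 (adjusted p = 0.00468).

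The class I list held the chain genes H2-K1, H2-D1, H2-Q4, H2-T23 and B2m and the peptide supply and loading genes Tap1, Tap2, Tapbp, Psmb8 and Psmb9. It also held Nlrc5, the class I counterpart of Ciita. All 11 were DEGs with higher expression, as were 25.3% of all genes tested. Their log2FC lay between 1.21 for B2m and 3.28 for H2-T23. Nlrc5 had 2437 ± 288 normalized counts with BRAF KE and 981 ± 128 without (log2FC 1.31, adjusted p = 2.15e-06), and H2-K1 had 54296 ± 4908 and 16533 ± 1999 (SD, n = 3 each; log2FC 1.72, adjusted p = 1.17e-07). For every 1000 normalized counts summed over these class I genes, Cd74 had 0.261 ± 0.0532 with BRAF KE and 1.45 ± 0.17 without (SD, n = 3 each). The ratios of Cd74, H2-Ab1, H2-Eb1, H2-DMa and H2-DMb1 to class I were lower with BRAF KE with no overlap, and so were those of 94.1% of all genes tested. The ratios of Ciita (0.0352 ± 0.0168 and 0.112 ± 0.0703, exact permutation p = 0.2, two-sided) and of H2-Aa (0.0117 ± 0.00604 and 0.00905 ± 0.0081, exact permutation p = 0.6, two-sided) overlapped between the groups.

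Genes for handling class II in the endosome were mixed. Of 9 genes, 5 were DEGs with lower and 2 with higher expression, with a median log2FC of −0.77. Ctss, the protease for the late steps of invariant chain cleavage in antigen-presenting cells, had 817 ± 149 normalized counts in BRAF KE–transfected and 6094 ± 602 in nontransfected astrocytes (SD, n = 3 each; log2FC −2.91, adjusted p = 1.74e-08). Marchf1, a ubiquitin ligase that removes class II from the surface, had 80.8 ± 14.9 and 627 ± 148 normalized counts (log2FC −2.93). Ifi30, a thiol reductase of the endosome, had 124 ± 27.6 and 318 ± 12.2 (log2FC −1.37, adjusted p = 3.07e-05). The higher DEGs were Ctsl, a cathepsin of wide tissue distribution (log2FC 0.44, adjusted p = 1.54e-04), and Sppl2a, which clears the membrane remnant of the invariant chain (log2FC 0.29, adjusted p = 0.00465).

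Markers of other cell types moved with the groups. All 20 myeloid markers, which cover microglia and macrophages and include Spi1, were lower with BRAF KE, with a median log2FC of −3.35, from −4.07 for Itgam to −0.88 for P2ry12, and none was at 0. Their sum was 6903 to 9633 normalized counts in the BRAF KE–transfected and 60593 to 76599 in the nontransfected cultures. Astrocyte markers were abundant in both groups, with sums of 194523 to 200354 and 142105 to 150693 normalized counts, 7 of 10 being DEGs with higher and 1 with lower expression. Their ends were Gfap, the intermediate filament of astrocytes, with 31508 ± 747 normalized counts with BRAF KE and 17292 ± 658 without (SD, n = 3 each; log2FC 0.87, adjusted p = 3.82e-07), and S100b, a calcium-binding protein, with 17.7 ± 5.48 and 26.7 ± 4.91 (log2FC −0.60, adjusted p = 0.147). In bulk samples such as these, fewer cells of a type and less RNA per cell cannot be told apart. The part of myeloid cells in the lower Cd74 and H2-DMb1 was not tested.

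The log2FC of Cd74, −0.91, stood at the upper end of the range of the myeloid markers, beside −0.88 for P2ry12 and −3.46 for Csf1r, the growth factor receptor of microglia and macrophages, which had 276 ± 1.86 normalized counts with BRAF KE and 3080 ± 569 without (SD, n = 3 each). Per 1000 normalized counts summed over the 20 myeloid markers, Cd74 had 7.77 ± 0.712 with BRAF KE and 1.63 ± 0.249 without, H2-DMa 19.4 ± 4.11 and 2.15 ± 0.561, and H2-Eb1 2.87 ± 0.783 and 0.229 ± 0.036 (SD, n = 3 each). All 7 members were higher per myeloid marker count with no overlap (exact permutation p = 0.1 each, two-sided), as were 97.5% of all genes tested, so this direction is that of nearly every gene.

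Perivascular macrophages, dendritic cells and B cells are known for higher class II expression than resting microglia, and their markers were therefore listed too. Of 6 perivascular macrophage markers, 3 were tested and all of these were lower, from −4.66 for Mrc1 to −3.13 for Ms4a7 in log2FC, with sums of 201 to 245 normalized counts with BRAF KE and 2321 to 2683 without. Of 11 dendritic and B cell markers, 9 did not pass the filter on low values, and Cd209a and Clec9a were listed at 0 in all 6 cultures. Zbtb46, a dendritic cell transcription factor, had 136 ± 13.8 and 137 ± 10.6 normalized counts (SD, n = 3 each) and was not a DEG. Pax5, a B cell transcription factor also used in the developing midbrain, had 39.8, 58.8 and 56.2 normalized counts with BRAF KE and 2.97, 1.04 and 2.86 without (log2FC 4.04, SE 0.40, adjusted p = 1.05e-05). Pax5 passed the filter on low values only through the BRAF KE–transfected cultures. Its nontransfected values are a few reads each, so the size of this log2FC is uncertain. The B cell receptor gene Cd79b was listed at 0 in every BRAF KE–transfected culture and at 6.39, 1.78 and 9.26 in the nontransfected ones.

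**Figure D3:**
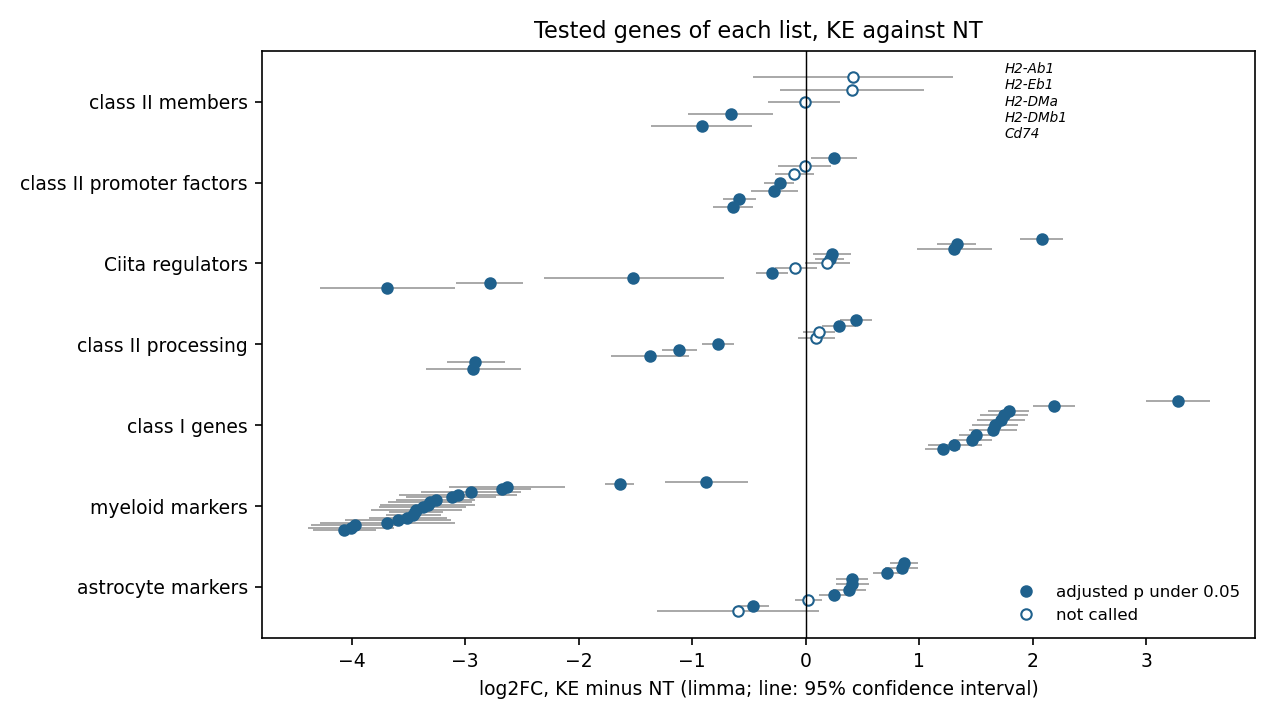
log2FC (BRAF KE minus nontransfected, horizontal axis) of each tested gene, by list; lines are 95% confidence intervals and filled points have an adjusted p under 0.05. The class II members lie between −0.91 and 0.42, the myeloid markers between −4.07 and −0.88 and the class I genes between 1.21 and 3.28.

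For each tested member, the genes nearest in pattern were taken by the Euclidean distance of centred log2 values over the 6 cultures, a description that carries the group difference within it. Nearest to Cd74 were Rnf165 (distance 0.190, log2FC −0.88), Ppp1r3b and Kif15, a mitotic kinesin. H2-DMb1 lay nearest to Xrcc2, a homologous recombination gene (distance 0.0877, log2FC −0.70), Pde3b and Alyref. H2-Eb1 lay nearest to Eda2r (distance 0.0624, log2FC 0.38), Ube2e1 and Atg12, and H2-DMa to Baalc, Tars2 and Tbl2. H2-Ab1 had its nearest genes farther off, 0610009L18Rik at a distance of 0.335, Slc8a3 at 0.344 and Gstm6 at 0.395. The members were left out of this search and none of the other class II genes was tested, so no class II gene could be a neighbour. No gene of the class I list was among the neighbours either. With log2FC of at least 1.21, against at most 0.42 for the members, these genes were set apart by the group difference alone.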

How the data were processed

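RNA of 6 mouse astrocyte cultures (3 BRAF KE, 3 nontransfected, 48 hours) was sequenced with a strand-keeping mRNA kit. The authors deposited 1 table of normalized counts per gene, a depth-scaled signal that is not whole reads. The study's methods name TrimGalore, STAR with GRCm39 and Gencode vM28, Salmon and DESeq2 with an adjustment for batches that are not named. That paragraph lists hippocampus and spheroid RNA as its samples and names astrocytes only for a fold change cutoff. The submitters' processing notes list GRCh38, although the identifiers are of mouse genes. Between 75.2% and 77.7% of low values came within 0.1 of whole multiples of the most frequent one, so reads were not recovered and no count test was run. The approximate depths were 34100000, 24500000 and 33800000 reads for BRAF KE and 30800000, 29500000 and 32100000 for nontransfected replicates 1 to 3. Precision is limited by 3 cultures a group and by single reads at low levels.

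Values were tested as log2(value + 1) by limma 3.58.1 (R 4.3.3, variance trend on) where a gene's mean over the cultures reached 10, and p-values were Benjamini-Hochberg adjusted over 15280 genes. Sums and ratios were compared with exact permutation tests in Python 3.11.15. Of the 55357 identifiers, 54749 were found in Gencode vM39, which gave positions and canonical transcript lengths in GRCm39. The fit was tested on simulated data. Alternatives were other pseudocounts, other filters, quantile normalization, 75th percentile scaling, no variance trend, the replicate number as a block and each culture left out.

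The members and the lists (other class II genes, class II promoter factors, Ciita regulators, class II processing, class I, myeloid, perivascular macrophage, dendritic and B cell, and astrocyte markers) were chosen with earlier results of these data known. Named are all members, of each list, genes at its ends or at the step described, the genes between H2-Oa and H2-Eb2, the 3 nearest genes of each tested member, and Braf. Csf1r, Cd79b and Pax5 were singled out after their values were seen. A gene of the Ciita regulators is not reported here by name or value.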

Additional observations from a re-analysis of the deposited data

How the results depend on the processing

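Of 378 comparisons of a result with its value under an alternative, 365 kept their direction and call or, for counts of calls, stayed within 1.5 times the reported count, which 41 of them did while moving. The log2FC of H2-DMa, which was called under no setting, changed sign from −0.01 to 0.14 with quantile normalization, and also without BRAF KE replicate 2 or 3 (0.01 each) or nontransfected replicate 3 (0.08). Without the variance trend, H2-Eb1 (log2FC 0.41) had an adjusted p of 0.0149, against 0.215 to 0.439 over its other alternatives, so that members called higher came to 1 rather than 0, and promoter factors called higher to 0 rather than 1. With no filter on low values, 2 other class II genes were called lower (H2-DMb2, adjusted p = 1.76e-05, and H2-Oa, adjusted p = 0.0412, whose groups overlapped) and so were 2 dendritic and B cell markers (Itgax, adjusted p = 0.00665, and Cd79b, adjusted p = 0.00195), against 0 each. With a mean of at least 50, 0 dendritic and B cell markers were called higher, since Pax5 was no longer tested. Leaving out 1 culture at a time gave a log2FC of −1.11 to −0.76 for Cd74, −0.75 to −0.56 for H2-DMb1, 0.35 to 0.49 for H2-Eb1, −0.10 to 0.08 for H2-DMa and 0.09 to 0.63 for H2-Ab1, the lowest without nontransfected replicate 1. Promoter factors called higher ranged from 0 to 1 and lower from 3 to 4, and Ciita regulators called higher from 4 to 6. Over all alternatives the adjusted p was 0.000824 to 0.0135 for Cd74 and 0.00614 to 0.0303 for H2-DMb1. With quantile normalization the log2FC was −0.76 for Cd74 and −0.52 for H2-DMb1. The labels give both groups replicate numbers 1 to 3, but do not say that a number marks a shared preparation. Deviations of same-numbered cultures correlated with r = 0.0589, 0.0664 and 0.0651, each culture correlating best with its own number, which is a hint from the data and not the design. With the replicate number as a block, Cd74 had an adjusted p of 0.00565 and H2-DMb1 of 0.0134, no member's call changed, and DEGs went from 7844 to 8046. With 1 read worth about 1 normalized count, H2-Aa, Ciita, H2-Oa and H2-Ob rest on few reads, and only large differences in them are detectable at this depth.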
